A study of Mus musculus with 4 samples.

Results

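The 10 genes described here are 7 MAP kinase phosphatases of the dual-specificity family (Dusp1, Dusp4, Dusp5, Dusp6, Dusp8, Dusp10 and Dusp16) and the 3 Gadd45 stress genes (Gadd45a, Gadd45b and Gadd45g). They were taken by gene symbol from the 27027 entries of the deposited table, and all 10 had an entry of their own. Liver RNA came from male young adult C57BL/6 mice (C57BL/6J in the study's methods) that had received either saline (0.9% NaCl, the vehicle control) or acetaminophen (APAP) at 300 mg/kg by intraperitoneal injection, and livers were taken 24 h or 48 h later. All mice, controls included, had been fasted before the injection. RNA of the mice of a group was mixed at equal shares, so that each of the 4 groups (control 24 h, control 48 h, APAP 24 h and APAP 48 h) was 1 library of massive analysis of cDNA ends (MACE), a sequencing of the 3′ ends of mRNAs in which duplicate reads are removed by molecular identifiers. The libraries held 4859661 reads (control 24 h), 5191990 reads (control 48 h), 5698778 reads (APAP 24 h) and 4938164 reads (APAP 48 h).

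With 1 pooled library per group there was no replicate within a time point, so the spread between mice is not known and folds at one time carry no test. A test of the treatment over both times, with 2 pools on each side, is given after the folds. A fold is the ratio of size-factor-normalised read counts of APAP to the control of the same time, and its 95% interval is the exact counting interval of these reads, which covers counting error only. A gene was called higher where the fold was at least 2 and the interval lay above 1, and called lower where the fold was at most 1/2 and the interval lay under 1. For the calls, a count of 3 reads or fewer in either library of the pair was set to 3 reads, and where the control held 1 or 2 reads the plain ratio is given, for the 10 genes beside the fold with that floor. Levels are given as RPM, the read count scaled to a library total of 1000000 reads. Since a transcript gives 1 read at its end in this method, an RPM value is not divided by transcript length. In whole liver, fewer cells of a type and less RNA per cell cannot be told apart. The libraries carried the transcripts of liver parenchyma, with albumin (Alb) at 42951 RPM in control 24 h, 43347 RPM in control 48 h, 42678 RPM in APAP 24 h and 51542 RPM in APAP 48 h. The size-factor folds of Alb were 0.873 at 24 h and 0.989 at 48 h.

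MAP kinases (ERK, JNK and p38) carry growth and stress signals from the cell surface to the nucleus and are active while phosphorylated on a threonine and a tyrosine. DUSP phosphatases remove both phosphates, and because several DUSP genes are themselves switched on by the kinases they shut off, their transcripts rise and fall with the signal. GADD45 proteins are small acidic proteins without enzyme activity that bind and activate the kinase MAP3K4 upstream of p38 and JNK and that bind the cell cycle proteins p21, PCNA and CDK1. In the liver, JNK is known to be activated in hepatocytes by the toxic metabolite of APAP, and Gadd45 genes are known to be induced after loss of liver tissue.

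At 24 h, 5 of the 10 genes were called higher after APAP (Gadd45b, Dusp5, Gadd45g, Dusp10 and Dusp1), where 4.85% of the 16095 entries with more than 3 reads in either library were called higher, and no member was called lower, against 4.73% of entries. At 48 h, Dusp5, Gadd45b, Dusp8 and Gadd45g (4 of 10) were called higher, where 5.0% of 16018 entries were, and Gadd45a was called lower, against 4.57% of entries. Dusp5, Gadd45b and Gadd45g were called higher at both times, as were 236 of the 15076 entries measured at both. At the 5-fold threshold the study used for its own gene list, Dusp5 and Gadd45b passed at 24 h, with 0.795% of entries, and Dusp5 passed at 48 h, with 0.474% of entries. The floor decided the side of Gadd45b at 48 h, which was 4.37 with it and 6.56 without it. The study's own list required the 5-fold threshold at both times by its own values, and the study names gadd45b among its genes. The study also reported higher dusp5 at both times, and higher gadd45b at a time between them, by real-time PCR. The median log2 fold of the 10 genes (1 normalised read added to each count) was 1.27 at 24 h and 0.83 at 48 h, against 0.02 at both times over all entries. Their summed level was 49.4 RPM in control 24 h, 54.3 RPM in control 48 h, 108 RPM in APAP 24 h and 80.8 RPM in APAP 48 h. In size-factor-normalised reads these sums were 273, 302, 523 and 374. Calls over the whole table were evenly split with these size factors (50.6% of calls were higher at 24 h and 52.3% at 48 h), whereas scaling to library totals shifted every log2 fold up by 0.19 at 24 h and 0.27 at 48 h and gave 70.8% and 77.4% higher calls.

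**Figure D1:**
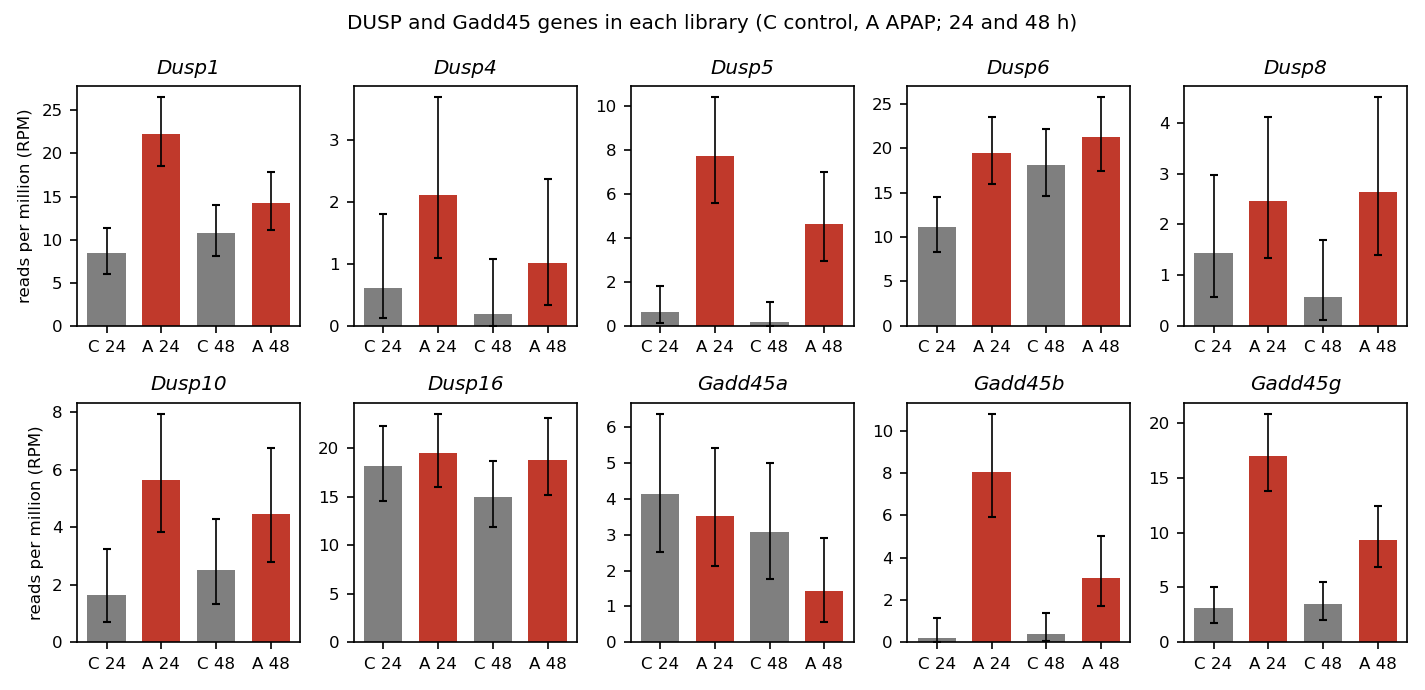
Level of each of the 10 genes in the 4 libraries, in RPM (vertical axis, starting at 0 with its own scale per gene), with controls in grey and APAP in red. Each bar is 1 pooled library, and the error bar is the exact 95% counting interval. Only for Dusp5, Gadd45b and Gadd45g do the intervals of both APAP libraries lie above those of both controls. Dusp16 is level, and Gadd45a is lowest in APAP 48 h at 1.42 RPM.

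Dusp5, a nuclear phosphatase that acts on ERK and is itself an ERK target, had 3 reads in control 24 h, 1 read in control 48 h, 44 reads in APAP 24 h and 23 reads in APAP 48 h. Both controls lay at or under the floor of 3 reads, and the counting intervals of the APAP libraries (5.61 to 10.4 RPM at 24 h and 2.95 to 6.99 RPM at 48 h) lay above those of both controls, which ended at 1.80 and 1.07 RPM. The fold at 24 h was 11.0 (interval 3.52 to 55.3). At 48 h the plain ratio was 20.1 (interval 3.27 to 829), and it was 6.70 with the floor. Of all entries, 0.130% had a larger fold at 24 h and 0.25% at 48 h. From 24 h to 48 h after APAP its level was lower by a ratio of 0.575 (0.332 to 0.974). The gene lies at chr19:53529109-53542431 on the plus strand of mm10.

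The promoter of Dusp5 is shown because it holds a pair of CArG boxes, the element bound by serum response factor in early genes, which a search on both strands found in 1.81% of 27025 genes. The boxes are adjacent, at positions -82 to -73 and -72 to -63 from the RefSeq start (GRCm38.p6, the same assembly as mm10), and are in capitals in the 150 bases before the start.
Dusp5 (chr19:53528995-53529144, plus strand): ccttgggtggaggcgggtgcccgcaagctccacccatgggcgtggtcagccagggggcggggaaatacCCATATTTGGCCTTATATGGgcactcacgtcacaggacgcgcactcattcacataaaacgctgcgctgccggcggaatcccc
A match is a string of letters, and binding was not measured here.

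Dusp6, the cytoplasmic phosphatase that acts on ERK, had 54 reads in control 24 h, 94 reads in control 48 h, 111 reads in APAP 24 h and 105 reads in APAP 48 h. Control 24 h was the lowest, at 11.1 RPM, while control 48 h (18.1 RPM) and both APAP libraries (19.5 and 21.3 RPM) had overlapping counting intervals. At 24 h its fold was 1.54 (1.10 to 2.17), at 48 h it was 0.977 (0.732 to 1.30), and neither was called. The control pools differed by 1.64 (1.16 to 2.34) for this gene, the 48 h control being higher, and against the 48 h control the fold at 24 h was 0.938. Against the 24 h control the fold at 48 h was 1.60 and was not called. The 2 ERK phosphatases thus had different profiles in these 4 libraries, Dusp5 separating APAP from control at both times and Dusp6 separating control 24 h from the rest.

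Dusp1, a nuclear stress-responsive phosphatase of p38, JNK and ERK, had 41 reads in control 24 h, 56 reads in control 48 h, 127 reads in APAP 24 h and 70 reads in APAP 48 h. APAP 24 h, at 22.3 RPM (18.6 to 26.5), lay above the other 3 libraries, whose intervals ran from 6.05 to 17.9 RPM and overlapped. A fold of 2.32 (1.62 to 3.39) at 24 h was followed by one of 1.09 (0.758 to 1.58) at 48 h. Against the 48 h control in place of the 24 h control, the fold at 24 h was 1.80, which did not reach the threshold. Dusp4, a nuclear phosphatase closely related to Dusp1, had 3 reads in control 24 h, 1 read in control 48 h, 12 reads in APAP 24 h and 5 reads in APAP 48 h. Its plain ratios of 3.0 (0.809 to 16.5) at 24 h and 4.37 (0.489 to 207, or 1.46 with the floor) at 48 h had intervals that included 1. At 24 h it was called higher against the 48 h control (3.18, with the floor) and against the sum of both control pools (4.63).

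Among the phosphatases that prefer JNK and p38, Dusp10 was called higher at 24 h, Dusp8 at 48 h and Dusp16 at neither. Dusp10 had 8 reads in control 24 h, 13 reads in control 48 h, 32 reads in APAP 24 h and 22 reads in APAP 48 h. Both APAP libraries exceeded both controls, although the counting intervals of APAP 24 h and control 48 h overlapped, as did those of APAP 48 h and both controls, with a fold of 3.0 (1.35 to 7.53) at 24 h and one of 1.48 (0.713 to 3.20) at 48 h. Against the 48 h control the 24 h fold was 1.96, just under the threshold. Dusp8 had 7 reads in control 24 h, 3 reads in control 48 h, 14 reads in APAP 24 h and 13 reads in APAP 48 h, and the intervals of its controls overlapped (0.579 to 2.97 and 0.119 to 1.69 RPM). At 24 h its fold was 1.5 (0.566 to 4.39). At 48 h it reached 3.79 (1.04 to 20.7), a value that became 1.53 against the 24 h control, where it was not called. Against the 48 h control the 24 h fold was 3.71 and was called higher, so the time of the Dusp8 call depended on the control used. Dusp16 had 88 reads in control 24 h, 78 reads in control 48 h, 111 reads in APAP 24 h and 93 reads in APAP 48 h. The 4 libraries had overlapping intervals, with folds of 0.945 (0.708 to 1.26) and 1.04 (0.763 to 1.43).

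The promoters of Dusp1 and Dusp8 are shown because they share a CRE, the palindromic element of cAMP-responsive factors, spelled TGACGTCA and present in 2.03% of genes. It lies at -143 to -136 in Dusp1 and at -107 to -100 and -63 to -56 in Dusp8, in capitals.
Dusp1 (chr17:26508473-26508622, minus strand): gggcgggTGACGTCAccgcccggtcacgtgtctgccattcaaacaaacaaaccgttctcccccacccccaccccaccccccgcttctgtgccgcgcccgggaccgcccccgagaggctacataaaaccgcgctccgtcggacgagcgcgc
Dusp8 (chr7:142095285-142095434, minus strand): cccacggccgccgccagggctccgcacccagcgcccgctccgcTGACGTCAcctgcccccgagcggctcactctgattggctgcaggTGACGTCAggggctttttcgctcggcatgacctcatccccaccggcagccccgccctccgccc
Of the 10 genes, 9 were matched in the RefSeq promoter table used here, all except Dusp4. The AP-1 motif TGACTCA (5.95% of genes), the EGR motif GCGTGGGCG (0.707%) and the NF-kB motif (9.55%), searched on both strands from 250 bases before to 50 bases after the start, matched in 0 of the 9 genes, which says only that these letters are not in this window.

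Gadd45b, which had the largest fold of the 10 genes at 24 h, held 1 read in control 24 h, 2 reads in control 48 h, 46 reads in APAP 24 h and 15 reads in APAP 48 h. Its counting intervals did not overlap between APAP and control at either time, the controls ending at 1.15 and 1.39 RPM and the APAP libraries starting at 5.91 and 1.70 RPM. At 24 h the plain ratio was 34.5 (5.88 to 1390), or 11.5 with the floor. At 48 h it was 6.56 (1.53 to 59.1), or 4.37 with the floor. With a floor of 10 reads it was 1.31 and not called. Within APAP, the 48 h level was lower than the 24 h level by a ratio of 0.359 (0.186 to 0.655). With the floor, 0.124% of entries had a larger fold at 24 h.

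Gadd45g had 15 reads in control 24 h, 18 reads in control 48 h, 97 reads in APAP 24 h and 46 reads in APAP 48 h. The order was APAP 24 h (17.0 RPM), APAP 48 h (9.32 RPM) and then the controls (3.47 and 3.09 RPM), which did not differ beyond counting error. At 24 h the fold was 4.84 (2.80 to 8.99), and at 48 h 2.23 (1.27 to 4.10). This was the best counted of the 3 genes called higher at both times, and all 3 were called at both times against either control pool.

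Gadd45a, the family member best known as a p53 target, did not share this profile. It had 20 reads in control 24 h, 16 reads in control 48 h, 20 reads in APAP 24 h and 7 reads in APAP 48 h. APAP 48 h was the lowest library, at 0.385 (0.138 to 0.949) of the level in APAP 24 h and with a fold of 0.383 (0.133 to 0.983) at 48 h after 0.749 (0.383 to 1.47) at 24 h. The lower call rests on 7 reads and was lost when libraries were scaled to their totals (0.460) and with a floor of 10 reads (0.547), which raises its 7 APAP reads to 10.

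The promoters of Gadd45b and Gadd45g are shown because both carry a TATA box (TATAAA, searched on the strand of the gene only and found in 9.77% of genes), while the window of Gadd45a held none. The box, in capitals, lies at -46 to -41 in Gadd45b and at -27 to -22 in Gadd45g. This motif was added after the values had been seen.
Gadd45b (chr10:80929941-80930090, plus strand): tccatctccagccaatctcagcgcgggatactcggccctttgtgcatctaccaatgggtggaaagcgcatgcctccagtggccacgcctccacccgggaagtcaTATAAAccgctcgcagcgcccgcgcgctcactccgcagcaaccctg
Gadd45g (chr13:51846525-51846674, plus strand): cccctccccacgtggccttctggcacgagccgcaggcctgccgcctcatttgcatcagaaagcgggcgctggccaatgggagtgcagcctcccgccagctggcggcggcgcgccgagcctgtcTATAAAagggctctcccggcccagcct
Gadd45b lies at chr10:80930073-80932204 and Gadd45g at chr13:51846678-51848468, both on the plus strand of mm10, and no other annotated gene overlapped the 3′ untranslated region of any of the 10 genes.

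**Figure D2:**
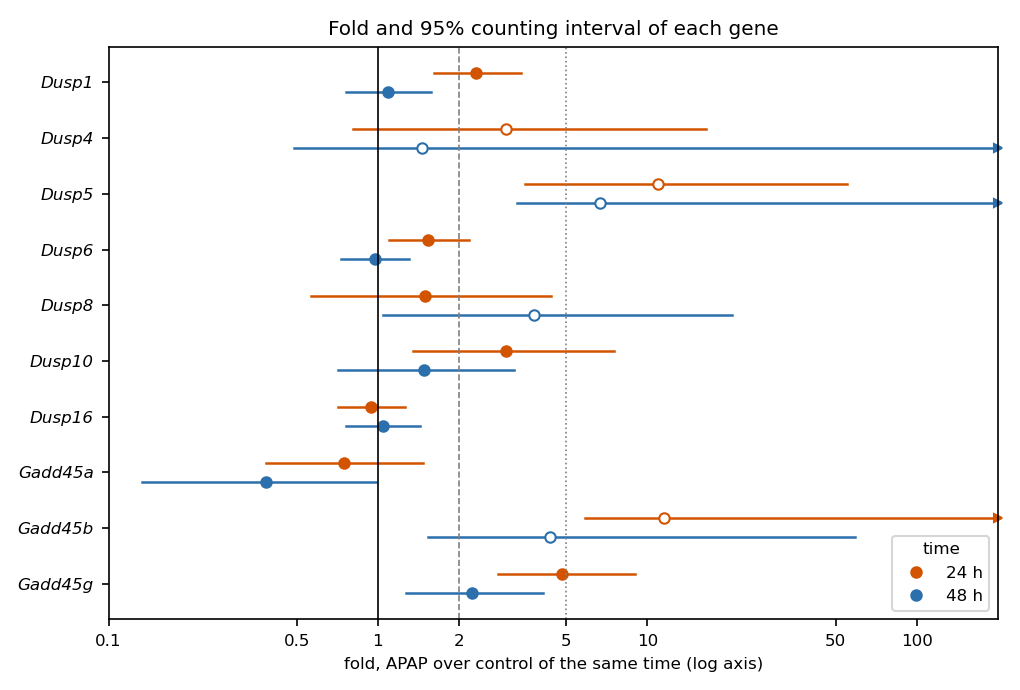
Fold of APAP over the control of the same time for each gene (horizontal log axis) at 24 h (orange) and 48 h (blue). Lines are exact 95% counting intervals, arrows mark intervals that run past the axis, and open points are folds in which a control of 3 reads or fewer was set to 3 reads. Dashed and dotted lines mark 2-fold and 5-fold, and only Dusp5 and Gadd45b at 24 h and Dusp5 at 48 h lie beyond the dotted line.

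The folds at the 2 times were next compared with each other, each with its own control. For Dusp1 the 48 h fold was 0.471 times the 24 h fold (0.278 to 0.798), and for Dusp6 it was 0.634 times (0.404 to 0.994). An interval under 1, as in these 2 of 10 genes, was found in 9.16% of 15076 entries, and above 1 in 1168 entries. Gadd45g had a ratio of 0.461 (0.198 to 1.07). Gadd45b had one of 0.381 with the floor in both controls, and the interval from its plain counts was 0.00316 to 4.03. For Gadd45g and Gadd45b a smaller fold at 48 h could thus not be told from an equal one. Dusp10 (0.494) and Gadd45a (0.511) also had ratios under 1 whose intervals included 1, and Dusp8 (2.53) and Dusp16 (1.10) had ratios above 1 whose intervals included 1. For Dusp5 and Dusp4, with 1 read in control 48 h, the side of 1 was set by the floor: the ratio was under 1 with it and above 1 with the plain ratios, and the intervals ran from 0.137 to 100.2 and from 0.0873 to 91.7. Within the APAP libraries alone, without a control, Dusp1 at 48 h was 0.607 (0.447 to 0.819) and Gadd45g 0.522 (0.359 to 0.749) of the level at 24 h. Between the control pools, 0 of the 10 genes were called in either direction, where 3.83% of 15459 entries were.

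The 4 pools also allow a test of APAP against control over both times, in which each time is a block, the effect is taken as equal at both times and 1 residual degree of freedom is left. It was added after the values had been seen. In edgeR's quasi-likelihood test with Benjamini-Hochberg adjustment over 12339 entries, 3 of the 9 genes with enough reads were past an adjusted p of 0.05 and higher after APAP, where 4.54% of entries were higher and 7.93% lower. Dusp5 had a log2 fold of 3.66 (edgeR, adjusted p = 1.9e-05), Gadd45b one of 3.85 (adjusted p = 5.2e-05) and Gadd45g one of 1.73 (adjusted p = 2.4e-04). Each was higher in both APAP pools than in both controls, but so were Dusp1, Dusp4, Dusp8 and Dusp10 in normalised reads. Dusp1 (0.67, edgeR adjusted p = 0.0797), Dusp10 (1.04, adjusted p = 0.145), Dusp8 (1.11, adjusted p = 0.290), Gadd45a (-0.80, adjusted p = 0.327), Dusp6 (0.27, adjusted p = 0.526) and Dusp16 (-0.02, adjusted p = 0.977) did not pass, and Dusp4 had too few reads. The folds of Dusp1 and Dusp6 differed between the times beyond counting error, whereas the fit takes the effect as equal. DESeq2 with the same block gave adjusted p = 0.0320 for Dusp5, 0.0626 for Gadd45b and 0.149 for Gadd45g, so that only Dusp5 passed with both tools. With any 1 library left out and no block, the edgeR log2 folds were 3.07 to 4.64 for Dusp5, 2.99 to 4.46 for Gadd45b and 1.24 to 2.17 for Gadd45g. Which of the genes passed changed with the library left out, as did the number of calls over all entries. Dusp5, too, did not pass in all of these fits. Each of these fits has 1 library on one side, which is assumed to vary like the pair on the other, and 1 residual degree of freedom. The p-values of the test over both times measure the spread between 4 pools, not between mice.

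**Figure D3:**
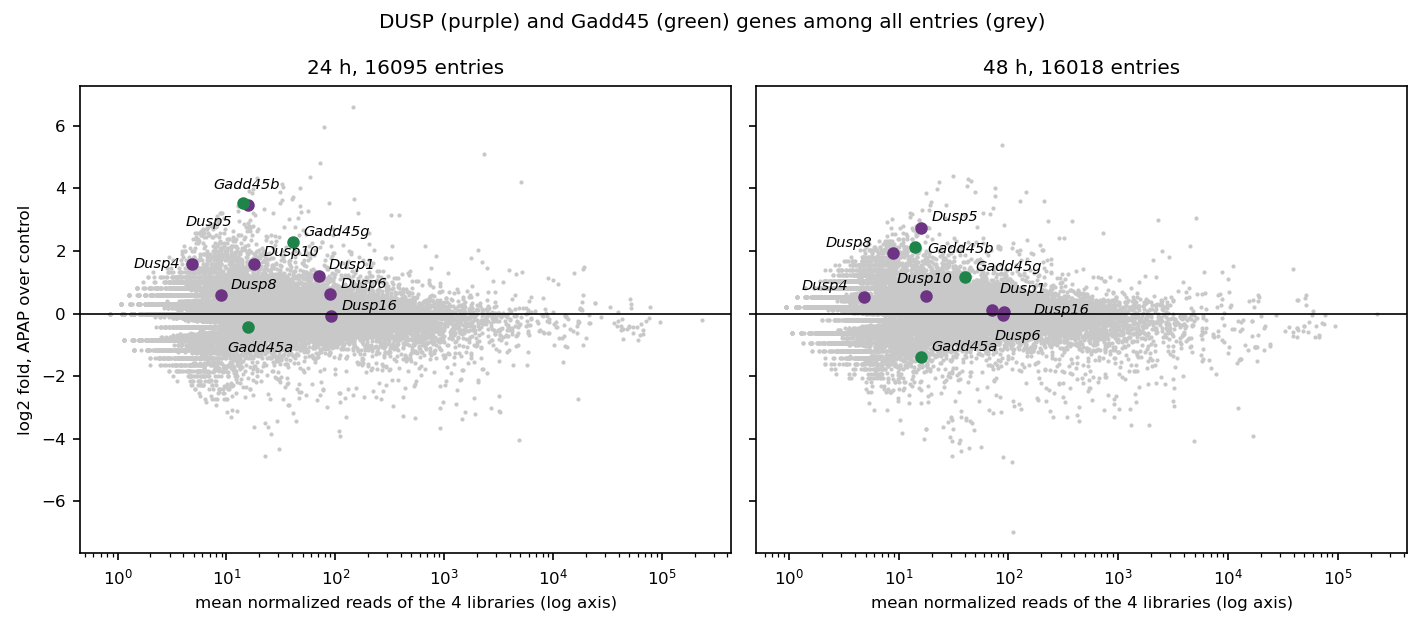
Log2 fold of APAP over control (vertical axis, with the floor of 3 reads) against the mean of the normalised reads of the 4 libraries (horizontal log axis) for all entries (grey), DUSP genes (purple) and Gadd45 genes (green) at 24 h (left, 16095 entries) and 48 h (right, 16018 entries). Dusp5 and Gadd45b lie near the upper edge of entries of similar abundance at 24 h, and Dusp1, Dusp6 and Dusp16 lie close to 0 at 48 h.

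Transcripts of early response genes are often short-lived, and the pentamer ATTTA in the 3′ untranslated region is a known element of instability. Counting it was decided after the values had been seen. Dusp1 held 4 pentamers in 693 bases (5.77 per kb), a higher density than 95.6% of 12556 expressed genes, whose median was 1.25 per kb, and it held 2 copies of the longer form TTATTTATT, which 7.64% of genes contained. Dusp8 held 5 pentamers in 2373 bases (2.11 per kb, above 67.2% of genes) and 1 longer copy, and Gadd45a held 2 pentamers (3.53 per kb). Gadd45b and Gadd45g held none, while 67.7% of genes held at least 1. In all, 5 of the 10 genes lay above the median density of all genes. The densest windows of Dusp1 (bases 97 to 126 of its region) and Dusp8 (bases 121 to 150) are shown with the pentamers in capitals, and Dusp10 and Dusp16 also held 2 overlapping pentamers in 1 window.
Dusp1: agctggtccttATTTATTTAacacccccct
Dusp8: ttcgattttttATTTATTTAagctagtgat

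The rest of the pathway was read from fixed lists. Of the ligands that start ERK signalling through EGF family and MET receptors, 7 of 8 were measured at 24 h and 2 were called higher. Hbegf had 1 read in control 24 h, 3 reads in control 48 h, 15 reads in APAP 24 h and 9 reads in APAP 48 h, a plain ratio of 11.2 (1.73 to 473) at 24 h. Ereg had 0 reads in control 24 h and 10 reads in APAP 24 h, at least 2.50-fold higher against the floor, and 1 read in APAP 48 h. None of the 4 ligands measured at 48 h was called against the control of the same time. Against the control of the other time, Hbegf was called at 48 h (2.47, with the floor) and Ereg was not called at 24 h. Of 5 receptors, Erbb4 was called lower at 24 h, with 116 reads in control 24 h, 84 reads in control 48 h, 45 reads in APAP 24 h and 57 reads in APAP 48 h, and a fold of 0.291 (0.201 to 0.413). At 48 h its fold was 0.593 (0.416 to 0.841), no receptor was called against the control of the same time, and Erbb4 was called lower against the 24 h control (0.405) and the sum of both pools (0.484). Egfr, the receptor with the most reads, had folds of 0.678 (0.620 to 0.741) and 0.539 (0.490 to 0.593) and was not called. Met (0.684 and 0.923) and Erbb3 (0.844 and 0.762) also had folds under 1. Erbb2 had 1.75 at 24 h and 0.656 at 48 h, both with the floor.

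Few of the kinases themselves were called. Of 28 cascade kinases measured at each time, 1 was called higher at 24 h and 1 at 48 h, near the share over all entries (4.85% and 5.0%), with list medians of 0.26 and 0.08 on the log2 scale. Intervals lay above 1 for 7 of them at 24 h and for 2 at 48 h. Map3k14, the NF-kB inducing kinase, had a fold of 4.12 (1.40 to 16.4) at 24 h, but its control pools also differed by the same rule, and against the 48 h control its fold was 1.03. Mapk13, a p38 isoform, had 1 read in each of control 24 h, control 48 h and APAP 24 h and 9 reads in APAP 48 h, a plain ratio of 7.87 (1.09 to 345) at 48 h. Map3k4, the kinase that GADD45 proteins activate, had 38, 35, 54 and 40 reads in control 24 h, control 48 h, APAP 24 h and APAP 48 h and was not called (it is named for its role, after its values were seen).

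Phosphatases outside the 10 genes were not called at either time. Of 3 other MAP kinase phosphatases only Dusp7 was measured, with 16 reads in control 24 h, 9 reads in control 48 h, 19 reads in APAP 24 h and 12 reads in APAP 48 h. Of 15 listed atypical dual-specificity phosphatases, which lack the kinase-binding domain, 9 were measured and 0 were called at 24 h or 48 h, with medians of -0.01 and 0.06 on the log2 scale. With library totals, Dusp28 (named after its values were seen) was called higher at 24 h. Of the Sprouty and Spred inhibitors, which restrain ERK activation and are induced by ERK signalling like Dusp5 and Dusp6, 5 were measured, 0 were called at 24 h (1 with library totals) and 2 at 48 h. Spred1 had 22 reads in control 24 h, 12 reads in control 48 h, 51 reads in APAP 24 h and 43 reads in APAP 48 h, a fold of 3.13 (1.62 to 6.53) at 48 h. Spry1 had 11 reads in control 24 h, 8 reads in control 48 h, 18 reads in APAP 24 h and 23 reads in APAP 48 h, a fold of 2.51 (1.09 to 6.50) at 48 h. Neither was called at 48 h against the 24 h control, with folds of 1.61 and 1.72. Against the sum of both pools, both were called higher at 48 h (Spred1 2.15 and Spry1 2.06). At 24 h Spred1 was called against the 48 h control (3.38) and the sum of both pools (2.32), and not against the 24 h control (1.74). The time of the Spred1 call thus depended on the control used.

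Early response genes were called most often of the pathway lists. At 24 h, 11 of 17 were called higher and 0 lower, with a list median of 2.21 on the log2 scale, and at 48 h 7 of 15 were called higher, with a median of 0.69. The 7 called at both times were the transcription factors Fos, Fosl1, Junb, Egr1 and Atf3 and the early genes Ier3 and Ier5. Atf3, a stress-induced factor, had 5 reads in control 24 h, 9 reads in control 48 h, 111 reads in APAP 24 h and 24 reads in APAP 48 h, with a fold of 16.6 (6.92 to 52.2) and then 2.33 (1.05 to 5.70). Egr1 had 31 reads in control 24 h, 40 reads in control 48 h, 235 reads in APAP 24 h and 106 reads in APAP 48 h, with a fold of 5.68 (3.89 to 8.55) and then 2.32 (1.60 to 3.42). Both had a smaller fold at 48 h beyond counting error, with ratios of 0.140 (0.0344 to 0.524) and 0.408 (0.234 to 0.711). Fos had plain ratios of 32.2 and 5.25, Junb folds of 4.77 and 2.29, Ier5 folds of 2.25 and 2.09, and Ier3 folds of 6.18 and 7.87. Fosl1 had a fold of 15.0 at 24 h and was at least 3.21-fold higher at 48 h, where its control held 0 reads. Called at 24 h and not at 48 h were Myc (6.74), Jun (4.34), Etv4 (a plain ratio of 5.99) and Ier2 (2.20). Against the control of the other time, the 24 h folds of Atf3 and Myc were 9.80 and 2.60, the 48 h fold of Atf3 was 3.96, Myc was also called at 48 h (4.33), and neither Ier5 (1.61) nor Fosl1 (3.02, with the floor) was called at 48 h.

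Of the proteins that GADD45 binds, 5 of 6 genes were measured and Cdkn1a, which encodes the cell cycle inhibitor p21, was called higher at both times. It had 32 reads in control 24 h, 51 reads in control 48 h, 399 reads in APAP 24 h and 223 reads in APAP 48 h, with folds of 9.34 (6.51 to 13.8) and 3.82 (2.81 to 5.29). Its fold, like that of Dusp1, was smaller at 48 h, by a ratio of 0.409 (0.247 to 0.672), while the folds were 6.21 and 5.75 against the control of the other time. Among 12 p53 targets, a group to which Gadd45a is usually counted, 3 were called higher and 1 lower at 24 h, and 2 were called higher at 48 h. Besides Cdkn1a these were Plk3 (4.14) and Zmat3 (4.65) at 24 h and Phlda3 (3.98) at 48 h, and Bbc3, which encodes the cell death protein PUMA, was called lower at 24 h (0.392). Against the control of the other time, Zmat3 was called at 48 h (4.62) and not at 24 h (1.64). Scaling to library totals gave 6 higher calls at 24 h and 4 at 48 h in this list.

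**Figure D4:**
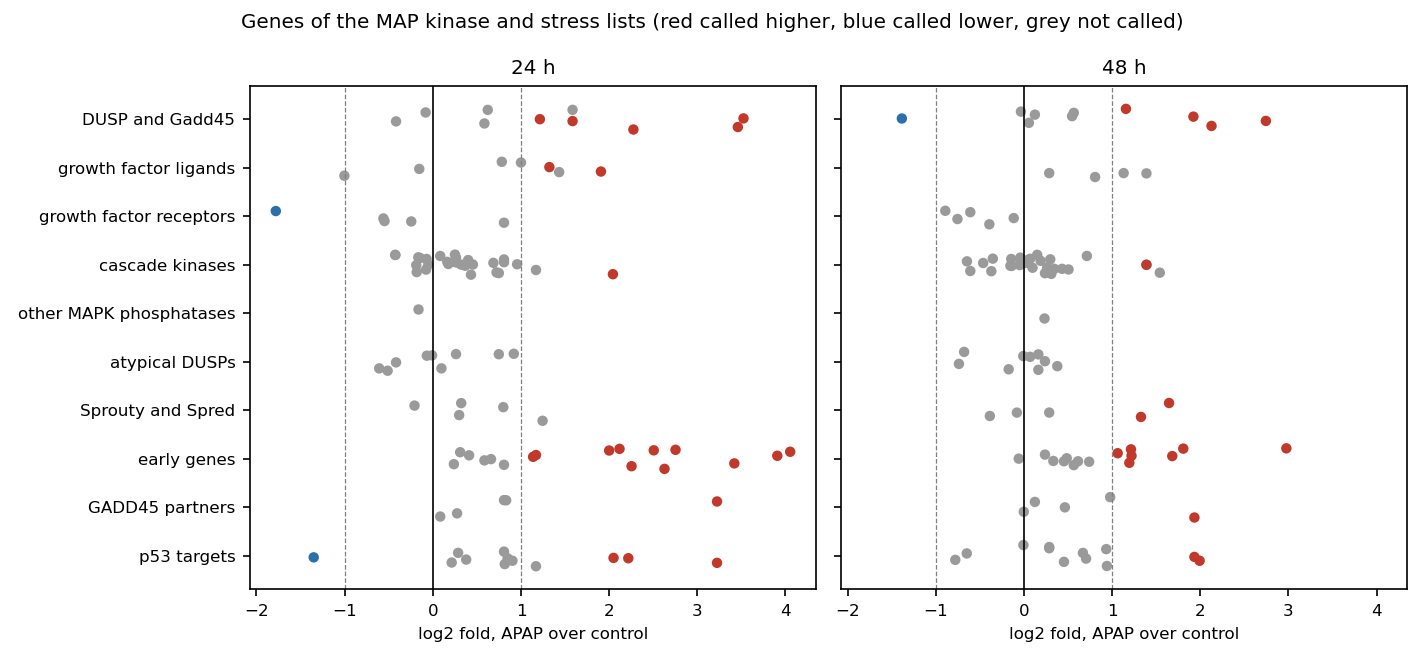
Log2 fold of APAP over control (horizontal axis) of each measured gene of the lists (rows) at 24 h (left) and 48 h (right). Red points were called higher, blue points lower and grey points neither, the vertical scatter within a row carries no meaning, and dashed lines mark 2-fold in either direction. The early genes at 24 h hold the most red points, 11 of 17, and of the kinases 1 of 28 is red at each time.

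Some markers of other cells moved with APAP in the same libraries. Of 10 myeloid markers, 4 were called higher at 24 h and 6 at 48 h, and their summed level was 139.5 RPM in control 24 h, 137 RPM in control 48 h, 225 RPM in APAP 24 h and 367 RPM in APAP 48 h. The most abundant was Lyz2, the lysozyme of macrophages and neutrophils, with folds of 3.42 (2.70 to 4.39) and 5.39 (4.38 to 6.67), and Marco (3.06 and 3.99), Ly6c2 (5.24 and 5.77) and Ccr2 (3.75 and 3.94) were also called at both times. Called at 48 h and not at 24 h were Cd68 (5.11) and Itgam (a plain ratio of 10.5). Against the 48 h control these were also called at 24 h (2.17 and 2.65, the latter with the floor). The rest of the list, Adgre1 (0.793 and 1.14), Clec4f (0.534 and 0.985), Csf1r (0.995 and 0.936) and Ptprc (1.75 and 2.14), was called at neither time. The 24 h level of Clec4f, a Kupffer cell marker, was lower after APAP beyond counting error (0.441 to 0.645). Of 5 listed neutrophil markers, 3 of 5 measured at 24 h and 3 of 4 at 48 h were called higher, with a summed level of 3.29 RPM in control 24 h, 3.27 RPM in control 48 h, 43.9 RPM in APAP 24 h and 34.6 RPM in APAP 48 h. The most abundant was S100a8, with folds of 20.8 (8.71 to 65.2) and 9.27 (4.85 to 19.9), and S100a9 was also called at both times. Retnlg was called at 24 h and not at 48 h (a plain ratio of 6.74 at 24 h), and Csf3r at 48 h and not at 24 h, at least 3.21-fold higher with 0 reads in its control. Against the control of the other time, Retnlg was called at 48 h as well (4.4, with the floor), Csf3r was called at 24 h (2.38, with the floor) and not at 48 h, Ccr2 was not called at 24 h (1.99), S100a8 had folds of 11.0 and 17.5, Marco folds of 5.26 and 2.32 and Ly6c2 folds of 3.34 and 9.07, and Ccr2 had one of 7.42 at 48 h. The part of these cells in the folds of Dusp5, Dusp10, Gadd45b, Gadd45g and the others was not tested.

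Hepatocyte markers, of which Alb was the most abundant, were not called at 24 h (0 of 6). Several were nevertheless lower at 24 h beyond counting error, Ttr with a fold of 0.561 (0.554 to 0.568) and Cyp2e1 with 0.623 (0.601 to 0.645). The 24 h intervals of Cps1 (0.766 to 0.835), Alb (0.868 to 0.878) and Serpina1a (0.917 to 0.948) also lay under 1. Apoa1 was higher at 24 h, with 1.17 (1.16 to 1.18). The list medians were -0.26 and -0.04 on the log2 scale. At 48 h 1 of 6, Cyp2e1, was called lower with a fold of 0.369 (0.354 to 0.385). Stellate cell markers (most abundant Dcn) had 0 of 6 called at 24 h and 2 of 6 higher at 48 h, Col1a1 (4.50) and Des (2.22). Dcn (1.37 and 1.48) and Pdgfrb (1.54 and 1.89) had folds above 1 and were not called. Lrat (0.557 and 0.832) and Reln (0.957 and 0.846) had folds under 1, with an interval under 1 for Lrat at 24 h (0.322 to 0.951). The stellate list summed to 78.0, 86.5, 112 and 175 RPM in control 24 h, control 48 h, APAP 24 h and APAP 48 h. Cholangiocyte markers (most abundant Sox9) summed to 25.9, 32.6, 81.9 and 66.2 RPM in the same order, with Sox9 called higher at 24 h (3.97) and Spp1 at 48 h (2.14). With library totals both were called at both times, Sox9 with 2.15 at 48 h and Spp1 with 2.16 at 24 h. The other 3 markers were not called, with folds at 48 h of 0.538 for Krt19, 0.328 for Krt7 (with the floor) and 0.612 for Epcam, and the list medians were 0.68 and -0.63 on the log2 scale. Endothelial markers (most abundant Clec4g) summed to 116, 129, 148 and 164 RPM, or 643, 717, 717 and 761 size-factor-normalised reads. Of the 6, 1, Lyve1, was called higher at both times (2.62 and 2.04). The list medians were 0.15 and 0.12 on the log2 scale, and Stab2 (0.874 and 0.780), Kdr (0.910 and 0.886) and Clec4g (0.940 and 0.902) had folds under 1, with an interval under 1 for Stab2 at 48 h (0.625 to 0.973). Pecam1 (1.67 and 1.94) and Cdh5 (1.32 and 1.31) had folds above 1 and were not called. The intervals of Pecam1 lay above 1 at both times (1.23 to 2.30 and 1.42 to 2.66). With library totals, 2 endothelial markers were called higher at 48 h. Lymphocyte markers (most abundant Cd3e) summed to 3.09, 2.89, 1.93 and 2.84 RPM, with Nkg7 called lower at 24 h on 8 reads in the control and 0 after APAP. No marker listed in the table was at 0 reads in all 4 libraries, and Ly6g and Tf were not listed.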

How the data were processed

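The authors made 1 MACE library per group from pooled liver RNA, removed duplicate reads by molecular identifiers, trimmed low-quality bases with cutadapt, clipped poly(A) tails, mapped reads to mm10 and quantified transcripts with HTSeq. DESeq2 is also named in the submitters' processing notes. The deposited table held raw read counts per entry in 4 columns, which were the only values used. Its normalised values and the authors' own fold changes and p-values were left out. Depth was 4859661 to 5698778 reads per library, and 3 reads, the floor, equal 0.526 to 0.617 RPM.

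Counts were scaled with DESeq2 (version 1.42.0 in R 4.3.3) median-of-ratios size factors over all entries. Folds had exact Clopper-Pearson 95% intervals from scipy 1.17.1, and ratios of 2 folds had exact conditional intervals. Entries with more than 3 reads in a library of the pair were counted as measured. Alternatives were TMM factors (edgeR 4.0.16), library totals, floors of 1 and 10 reads, a minimum of 20 reads, a fold of 1.5, the other control pool and the sum of both pools. The scripts were tested on simulated data. Within a time point the exact intervals stand in place of a test. Treatment over both times was tested with edgeR's quasi-likelihood test, TMM factors and time as a block, and with DESeq2, both added after the values were seen. The 10 genes and the lists were chosen with earlier results of these data known. All 10 were named, and in each list the genes called at both times and at most 4 called at 1 time, by size of fold. Marker lists gave their most abundant gene and genes at 0 reads.

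Promoters were those of RefSeq (GRCm38.p6), 3′ untranslated regions those of GENCODE release 21, and shared 3′ ends were searched with blastn 2.17.0 (at least 95% identity over 100 of the last 300 bases), which found none among the 10 genes.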

Additional observations from a re-analysis of the deposited data

Results flagged for a closer look

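For Dusp1 the fold of APAP over control differed between the time points: the 48 h fold was 0.471 times the 24 h fold, with an exact counting interval of 0.278 to 0.798. The same held for Dusp6, with 0.634 (0.404 to 0.994), where control 24 h held 54 reads and the other 3 libraries 94 to 111 reads. Both intervals compare 4 pooled libraries and hold counting error only, and with library totals the interval of Dusp6 included 1 while that of Dusp1 did not. Against the control of the other time, Dusp1 had folds of 1.80 at 24 h and 1.41 at 48 h. Dusp6 then had 0.938 at 24 h and 1.60 at 48 h, so that its larger fold was at 48 h.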

How the results depend on the processing

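Of 119 alternative folds of the 10 genes, 109 kept their direction, 6 moved beyond their counting interval, and those that turned (Dusp4, Dusp6 and Dusp16) were of genes not called. Of 458 alternative folds of the named list genes, 451 kept their direction and 28 moved beyond their counting interval. Of those that turned, the ones called at that time were Fosl1 and Csf3r at 48 h, each 0.962 with a floor of 10 reads, which exceeds their control counts of 0. The number called higher at 24 h was 5 or 6 under every alternative, but against the 48 h control Dusp1 and Dusp10 were not called, and Dusp4 and Dusp8 were. At 48 h, 2 genes were called higher with a floor of 10 reads and 2 with a minimum of 20 reads, instead of 4. The 5-fold count was 0 at both times with a floor of 10 reads, at 24 h it was 3 instead of 2 with library totals (Gadd45g, 5.51), and at 48 h it was 2, Gadd45b beside Dusp5, instead of 1 with library totals, with a floor of 1 read and with the sum of both control pools. Library totals left 1 gene, Dusp1, with folds that differed between the times. Dusp8 at 48 h was lost with the other control, their sum, and both stricter minimums, and Gadd45b at 48 h with both stricter minimums (1.31 with the floor of 10 reads). The sum of both control pools gave 24 h folds of 17.0 for Dusp5 and 23.7 for Gadd45b. Against the 24 h control with the floor these folds were 11.0 and 11.5, and the plain ratio of Gadd45b was 34.5. The sign of Dusp6 and Dusp16, which were not called, varied with the control used. Library totals also turned Dusp6 at 48 h (1.17) and Dusp16 at 24 h (1.08). Dusp4 at 24 h turned with a floor of 10 reads (0.899). Depth limits Dusp4, Dusp5, Dusp8 and Gadd45b, whose controls held 1 to 7 reads. In the test over both times, 3 genes passed without the block for time, with median-of-ratios factors and with no filter on low counts, and 1 passed with DESeq2, which called 109 of 24767 entries higher and 298 lower. EdgeR called 560 and 978 of 12339 filtered entries, and 647 and 881 of the 24767 without the filter. Leaving out 1 library, with 1 left on that side, gave log2 folds of 3.07 to 4.64 for Dusp5, 2.99 to 4.46 for Gadd45b and 1.24 to 2.17 for Gadd45g. The genes that passed, and the calls over all entries, changed with the library left out.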
